A study of Mus musculus with 11 samples.

Results

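Striatal projection neurons are the GABAergic output neurons of the striatum, and 8 transcription factors known from their development and identity are described here: Foxp1, Foxp2, Bcl11b, Ebf1, Isl1, Ikzf1, Zfp503 and Six3. They were found by symbol among the 39179 genes of the deposited count table, and all 8 were present and passed the filter on low counts. RNA had been sequenced from GFP-positive cells sorted out of dissected V-SVZ tissue, the germinal zone lining the lateral ventricle, of CD1/Swiss mice at postnatal day 2. The mutant group (n = 5 libraries) carried Gsh2-Cre with 1 floxed and 1 null Zeb2 allele (Zeb2fl/ko), and the control group (n = 6 libraries) carried Gsh2-Cre with 1 floxed and 1 wild-type allele (Zeb2fl/wt). Both groups carried the RCE reporter, an allele that makes GFP after Cre has acted. The controls are therefore not wild type: they carry Cre and a floxed allele too. By its notation, the null allele of the mutants is present in every cell and not only where Gsh2-Cre acts. Whether libraries stand for single animals or pools is not in the labels, and the p-values therefore rest on the spread among libraries, part of which may be technical. In sorted bulk RNA, fewer cells of a type and less RNA per cell cannot be told apart.

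Projection neurons of the striatum arise from the lateral ganglionic eminence, whose progenitors express Gsh2 (now Gsx2), and they fall into a direct pathway class that expresses the dopamine receptor Drd1 and an indirect pathway class that expresses Drd2. Foxp1, Foxp2, Bcl11b (Ctip2) and Zfp503 (Nolz1) are known from both classes or their common precursors, Ebf1 and Isl1 from direct pathway neurons, and Six3 and Ikzf1 from indirect pathway, enkephalin-expressing neurons. The V-SVZ that lines the striatum after birth supplies interneurons of the olfactory bulb. Zeb2 (Sip1) is a zinc finger repressor that binds CACCT and CACCTG sequences.

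Libraries held 6833981 to 13073505 counts. Counts over the whole Zeb2 gene, which include exons outside the floxed part, gave 303 ± 63.8 CPM (counts scaled to library size, with TMM factors) in mutants and 238 ± 46.7 CPM in controls (SD; log2 fold change 0.35 ± 0.165 SE, adjusted p = 0.294), so they check no label. Sex was not balanced: all 5 mutant libraries and controls 4 and 5 had Xist RNA and 0 counts of 4 Y-linked genes, whereas controls 1, 2, 3 and 6 held 763, 2716, 1780 and 810 Y-linked counts. Each result on a member was therefore also computed among the libraries without Y-linked counts. Markers of other cell types moved with genotype as well. The summed level of 10 genes of medial ganglionic eminence interneurons was 2780 to 3969 CPM in mutants and 554 to 910 CPM in controls, and that of 10 olfactory bulb interneuron genes was 1557 to 2365 CPM in mutants and 884 to 1402 CPM in controls. Of these lists 6 and 4 genes were higher, and 1 interneuron gene was lower. Lhx6, a transcription factor of those interneurons, was 3.85-fold higher (adjusted p = 2.02e-06). A list of 10 progenitor genes summed to 608 to 813 CPM in mutants and 811 to 1105 CPM in controls, with 3 genes lower. That count was 0 without mutant 3, without control 1, without control 4 and among libraries without Y-linked counts, and 1 without mutant 2 or 5 or control 2 or 3. The part of these shifts in the results below was not tested.

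Foxp1, Bcl11b and Six3 fell in mutant libraries, and the other 5 factors did not pass the test. All 8 log2 fold changes were below 0, here and under each alternative run, with a median of -1.40 beside a median of -0.02 over the 14104 genes tested. The count of 3 of 8 lower and 0 of 8 higher (edgeR quasi-likelihood test, Benjamini-Hochberg adjusted p of at most 0.05) stands beside 1.74% of all tested genes lower, 2.68% higher and 4.42% in either direction. Among libraries without Y-linked counts, and with the Y-linked level as a covariate, 2 of 8 were lower and Six3 did not pass. In those runs 218 and 186 genes changed in either direction. In Foxp1, Bcl11b and Six3 every mutant library lay below every control library, which held for 2.03% of the genes tested, while 2.89% had every mutant above every control. The members were chosen with earlier results of these data known, so these counts describe the list and do not test it. At an unadjusted p under 0.05 the count was 6 of 8. The shares above do not apply to that cutoff, and its share over all tested genes is not given here. Summed over the 8 genes, the level was 276 to 422 CPM in mutants and 505 to 1377 CPM in controls, so the sums did not overlap. Most of each sum was Foxp1, Foxp2 and Bcl11b, with means of 102, 118 and 107 CPM in mutants and 417, 163 and 273 CPM in controls. No other member averaged above 15.1 CPM in mutants or 41.6 CPM in controls, so the sums mainly describe these 3 genes.

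The 250 bases before a start site of each of the 3 genes that fell are given below, on the gene's own strand, from RefSeq on GRCm38.p6, with a match to CACCT or its reverse complement AGGTG in capitals. They are shown because these genes were the members called lower in mutants and because CACCT is the sequence Zeb2 is known to bind. The Foxp1 stretch lies at chr6:99028299-99028548 on the minus strand and belongs to the third of 3 starts in the table, picked because it alone of the 3 holds CACCT, the Bcl11b stretch at chr12:108003415-108003664 on the minus strand, and the Six3 stretch at chr17:85620584-85620833 on the plus strand.
Foxp1: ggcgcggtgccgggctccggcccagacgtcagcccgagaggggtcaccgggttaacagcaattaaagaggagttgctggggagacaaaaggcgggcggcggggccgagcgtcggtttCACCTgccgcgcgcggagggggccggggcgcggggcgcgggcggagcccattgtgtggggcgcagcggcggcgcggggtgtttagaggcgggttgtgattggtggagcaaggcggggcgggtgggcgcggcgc
Bcl11b: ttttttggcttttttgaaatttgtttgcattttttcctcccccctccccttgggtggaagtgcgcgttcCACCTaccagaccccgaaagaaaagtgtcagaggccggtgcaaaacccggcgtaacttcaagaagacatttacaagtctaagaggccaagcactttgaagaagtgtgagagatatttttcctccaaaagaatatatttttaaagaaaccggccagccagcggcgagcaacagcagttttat
Six3: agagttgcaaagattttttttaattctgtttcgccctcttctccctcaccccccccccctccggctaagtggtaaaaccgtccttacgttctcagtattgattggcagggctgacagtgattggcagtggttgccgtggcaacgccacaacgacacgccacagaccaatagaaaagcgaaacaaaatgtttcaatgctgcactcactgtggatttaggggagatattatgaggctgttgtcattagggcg
Of the 11 promoters that 7 of the members had in the table, 3 held CACCT on either strand: the third start of Foxp1, Bcl11b and the second start of Ebf1. The single match in the Foxp1 stretch runs on into CACCTG (reverse complement CAGGTG), which contains CACCT, and no other member promoter held CACCTG. None of the 11 held GTAAACA (reverse complement TGTTTAC), a forkhead motif. Among all 32851 promoter windows of 250 bases, 46.0% held CACCT, 17.2% CACCTG and 3.17% GTAAACA. A match describes these letters in these windows and is no evidence of binding.

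Foxp1 encodes a forkhead repressor and lies at chr6:98925338-99522721 on the minus strand (GRCm38). It was counted at 105, 122, 93.0, 73.1 and 120 CPM in mutants 1 to 5, against a lowest value of 189, a median of 428 and a highest value of 650 CPM in controls. Even the highest mutant lay below the lowest control, and controls 1 and 6, at 189 and 192 CPM, stood closest to the mutants. The mean was 102 ± 20.1 CPM in mutants and 417 ± 201 CPM in controls (SD), a log2 fold change of -2.03 ± 0.310 (SE, adjusted p = 0.0012), or 4.07-fold lower. Among libraries without Y-linked counts (5 mutants, 2 controls) it was -2.31 (adjusted p = 0.00034). The values varied more among controls than among mutants: the highest control was 3.44 times the lowest, and the highest mutant 1.66 times the lowest. Foxp1 shares 300 exon bases with Gm20696 on the same strand, which was counted at a mean of only 1.54 CPM.

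Bcl11b encodes a zinc finger protein needed for the differentiation of striatal projection neurons, and lies at chr12:107910403-108003602 on the minus strand. Its counts came to 130, 106, 95.03, 97.3 and 109 CPM in mutants 1 to 5, and in controls to a lowest value of 194, a median of 266 and a highest value of 386 CPM. The groups did not overlap, and the 5 mutants lay close together, with a coefficient of variation of 12.8% against 31.6% among controls. Bcl11b averaged 107 ± 13.8 CPM in mutants and 273 ± 86.3 CPM in controls (SD), a log2 fold change of -1.35 ± 0.194 (SE, adjusted p = 0.000783), or 2.54-fold lower. Among libraries without Y-linked counts the log2 fold change was -1.28 (adjusted p = 0.00822). Foxp1 and Bcl11b passed the test under every alternative run, with log2 fold changes of -2.37 to -1.86 for Foxp1 and -1.53 to -1.22 for Bcl11b.

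Foxp2 encodes a forkhead protein that can pair with Foxp1, and lies at chr6:14901349-15441977 on the plus strand. It stood at 119, 153, 85.6, 91.7 and 143 CPM in mutants 1 to 5, against 75.3 (lowest), 158 (median) and 260 CPM (highest) in controls. No mutant lay below all controls: controls 1, 4 and 6 fell within or below the mutant range, and controls 2, 3 and 5 above it. The log2 fold change was -0.47 ± 0.309 (SE, adjusted p = 0.483), and -0.29 without control 5 (adjusted p = 0.680). For Foxp2 it was -0.60 among libraries without Y-linked counts (adjusted p = 0.498).

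Zfp503 encodes a zinc finger protein of early striatal neurons and their precursors, and lies at chr14:21983959-21989601 on the minus strand. At 2 to 77 counts a library it was the most thinly counted member. Its level was 1.92, 2.31, 0.437, 0.150 and 6.40 CPM in mutants 1 to 5, against 2.27 (lowest), 3.16 (median) and 4.99 CPM (highest) in controls. Mutants 1, 3 and 4 lay below all controls while mutant 5 lay above all of them, and the log2 fold change of -0.63 ± 0.667 (SE, adjusted p = 0.697) was within its error. It moved with single libraries, to -1.54 ± 0.642 (SE, adjusted p = 0.226) without mutant 5, -0.37 without mutant 3 and -0.33 without mutant 4, and limma-voom gave -1.48 (adjusted p = 0.273). By edgeR the log2 fold change of Zfp503 was -0.39 among libraries without Y-linked counts (adjusted p = 0.928).

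**Figure D1:**
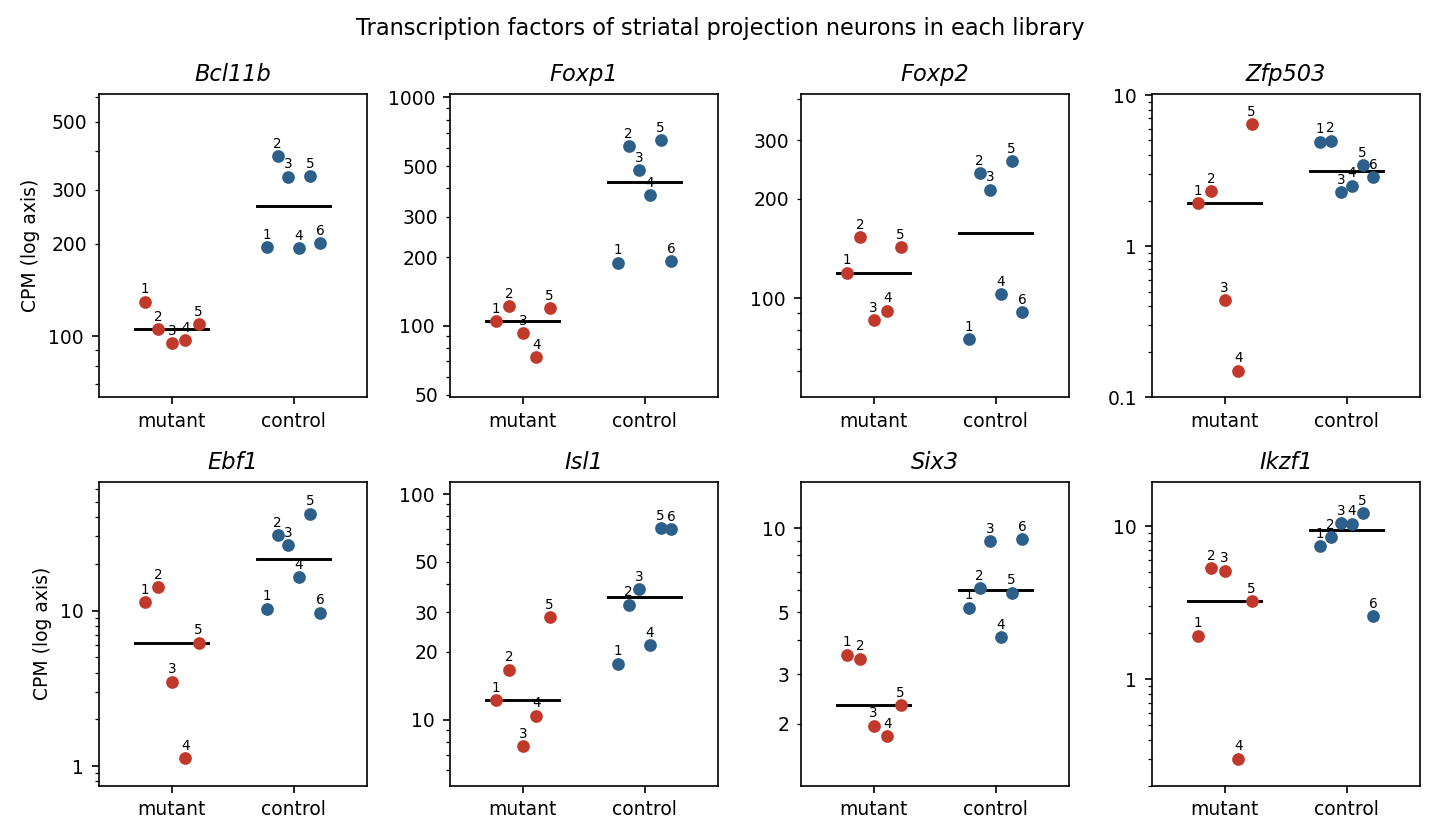
Level of each of the 8 transcription factors in every library (CPM scaled by TMM, log axis), with mutants left of controls, replicate numbers beside the points and the group median as a bar. Mutant points lie below all control points for Foxp1, Bcl11b and Six3, and the groups overlap for the other 5.

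Neither direct pathway factor passed the test, though both had lower means in mutants. Ebf1, a helix-loop-helix factor of differentiating direct pathway neurons at chr11:44617317-45008091 on the plus strand, was counted at 11.3, 14.1, 3.50, 1.12 and 6.23 CPM in mutants 1 to 5. The controls had a lowest value of 9.71, a median of 21.4 and a highest value of 41.9 CPM. Mutants 3, 4 and 5 lay below all controls, and mutants 1 and 2 above controls 1 and 6. The log2 fold change of Ebf1 was -1.64 ± 0.539 (SE, adjusted p = 0.111). DESeq2 gave an adjusted p of 0.0185 for it.

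Isl1, a LIM homeodomain factor of direct pathway neurons and of striatal cholinergic interneurons, lies at chr13:116298281-116309689 on the minus strand. It was counted at 12.2, 16.7, 7.65, 10.4 and 28.4 CPM in mutants 1 to 5, against 17.7 (lowest), 35.1 (median) and 70.7 CPM (highest) in controls. All mutants but the fifth lay below all controls, and mutant 5 lay above controls 1 and 4. The log2 fold change was -1.46 ± 0.405 (SE), just outside the threshold at an adjusted p of 0.0555 by edgeR. Isl1 crossed it without mutant 5 (-1.83, adjusted p = 0.0189), without control 1 (-1.61, adjusted p = 0.0344) and without control 4 (-1.59, adjusted p = 0.0468), all log2 fold change of Isl1 in mutants over controls. It did not cross without any 1 of mutants 1 to 4 or controls 2, 3, 5 and 6, at adjusted p-values of 0.0661 to 0.142. For Isl1 the log2 fold change among libraries without Y-linked counts was -1.59 (adjusted p = 0.194). With the Y-linked level as a covariate it was -1.67 (adjusted p = 0.198). Of the cholinergic markers, Chat was at 0 counts in all 11 libraries. Lhx8 averaged 1.72 ± 1.89 CPM in mutants and 2.87 ± 2.88 CPM in controls (SD; adjusted p = 0.737), and the summed level of the cholinergic list was 16.4 to 21.3 CPM in mutants and 5.54 to 32.6 CPM in controls.

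Six3, a homeodomain factor required for indirect pathway neurons in the mouse, lies at chr17:85613608-85629302 on the plus strand. It was counted at only 18 to 99 reads a library, or 3.53, 3.41, 1.97, 1.80 and 2.33 CPM in mutants 1 to 5, against 4.08 (lowest), 6.00 (median) and 9.15 CPM (highest) in controls. Control 4 came nearest to mutant 1 without overlap. Six3 averaged 2.61 ± 0.813 CPM in mutants and 6.57 ± 2.06 CPM in controls (SD), a log2 fold change of -1.33 ± 0.336 (SE, adjusted p = 0.0352), or 2.52-fold lower. The call is less firm than the other two. Leaving out any 1 of mutants 3, 4 and 5 or controls 2, 3 and 6 gave adjusted p-values of 0.0558 to 0.0901 and a log2 fold change of Six3 of -1.35 to -1.22. Among libraries without Y-linked counts the log2 fold change of Six3 was -0.92 (adjusted p = 0.507), and with the Y-linked level as a covariate -0.96 (adjusted p = 0.442). Six3os1, the long noncoding RNA on the opposite strand next to it, was also lower, at 9.25 ± 3.20 CPM in mutants and 21.6 ± 8.24 CPM in controls (SD; log2 fold change -1.23 ± 0.299 SE, adjusted p = 0.0300). The genes share 106 exon bases, and reads there cannot be assigned to a strand. Six3os1 also lost its call without mutant 3 or 4 or control 2 or 3, at adjusted p-values of 0.0528 to 0.0819. The log2 fold change of Six3os1 among libraries without Y-linked counts was -0.69 (adjusted p = 0.515), and with the Y-linked level as a covariate -0.76 (adjusted p = 0.495).

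Ikzf1 (Ikaros) encodes a zinc finger protein known from enkephalin neurons of the mouse striatum and, far more widely, from blood cells, and lies at chr11:11685003-11772926 on the plus strand. It was counted at 1.92, 5.32, 5.14, 0.300 and 3.24 CPM in mutants 1 to 5, against 2.59 (lowest), 9.49 (median) and 12.2 CPM (highest) in controls. Mutants 1 and 4 lay below all controls, and only control 6 reached into the mutant range. The log2 fold change of -1.45 ± 0.545 (SE, adjusted p = 0.173) did not pass. Nor did that of Ikzf1 among libraries without Y-linked counts, at -1.84 (adjusted p = 0.314). Microglial markers were sparse, as Ikzf1 itself was: 1 of 10 passed the filter, and the list summed to 2.10 to 10.8 CPM in mutants and 1.09 to 11.1 CPM in controls. Cx3cr1, P2ry12 and Tmem119 were each at 0 in 6 of 11 libraries, but Cx3cr1 reached 6.32 CPM in a mutant. Lymphoid markers summed to 3.23 to 12.03 CPM in mutants and 1.97 to 6.78 CPM in controls, with Cd3e and Cd3g at 0 in all 11. Nearly all of that sum was Lck, a kinase of T cells, at 3.00 to 11.04 CPM in mutants and 1.78 to 6.78 CPM in controls. Lck was the only tested gene of the list, with a log2 fold change of 0.91 ± 0.394 (SE, unadjusted p = 0.0364, adjusted p = 0.247). Whether any Ikzf1 counts came from blood cells or microglia was not tested.

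**Figure D2:**
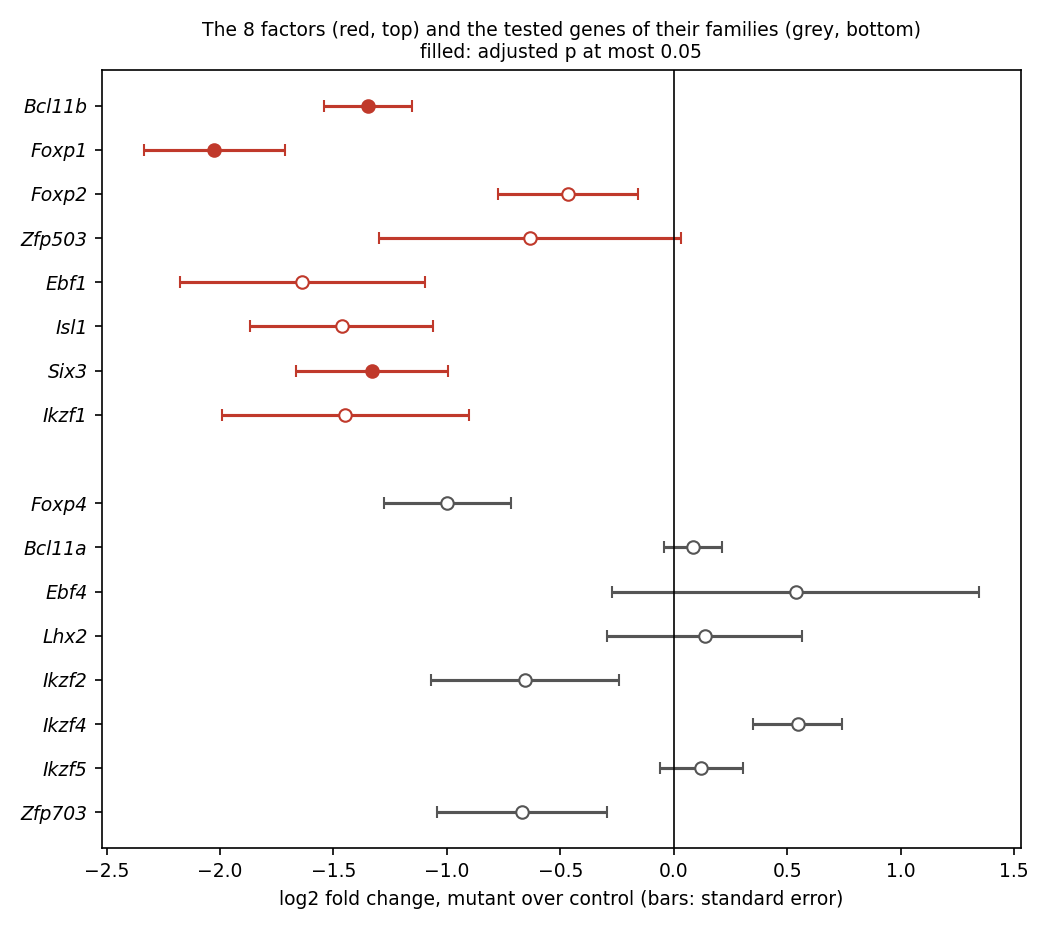
Log2 fold change, mutant over control, with its standard error as a bar, for the 8 transcription factors (red) and the tested members of their families (grey). Foxp1, Bcl11b and Six3, at -2.03, -1.35 and -1.33, are the filled points that passed the test.

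None of the close relatives of the members passed the test. Of 19 family members 8 passed the filter on low counts, and 0 were higher and 0 lower in mutants by edgeR, with a median log2 fold change of 0.10. At an unadjusted p under 0.05 there were 2, a cutoff whose share over all tested genes is not given here. DESeq2 and limma-voom each called 1 lower, where 1109 and 661 genes changed in either direction. Bcl11a, the paralog of Bcl11b, averaged 372 ± 34.9 CPM in mutants and 351 ± 65.5 CPM in controls (SD), a log2 fold change of 0.09 ± 0.127 (SE, adjusted p = 0.793). Its sign turned, at -0.01, without controls 1 and 6 together. Foxp4, which can pair with both Foxp1 and Foxp2, averaged 14.4 ± 7.09 CPM in mutants and 28.7 ± 4.93 CPM in controls, with a log2 fold change of -0.998 ± 0.279 (SE, adjusted p = 0.0579). Without mutant 5 the log2 fold change of Foxp4 was -1.31 (adjusted p = 0.00786). Ikzf2 and Zfp703 had log2 fold changes of -0.66 (adjusted p = 0.456) and -0.67 (adjusted p = 0.389). Ikzf5 had one of 0.12 (adjusted p = 0.799), and 4652 of its exon bases overlap Pstk on the opposite strand.

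Ratios of counts within a library compare a pair of genes free of library scaling. The ratio of Foxp1 to Foxp2 counts was 0.878, 0.796, 1.09, 0.797 and 0.839 in mutants 1 to 5, against 2.12 (lowest) to 3.64 (highest) in controls. In controls Foxp1 reads thus outnumbered Foxp2 reads in 6 of 6 libraries, and in mutants in 1 of 5. On the log2 scale the ratio was -0.20 ± 0.185 in mutants and 1.36 ± 0.271 in controls (SD), a difference of -1.55 (exact two-sided permutation test over 462 splits, p = 0.00433, the smallest it can give; adjusted p = 0.0173 over 8 pairs). The ratio of Bcl11b to Bcl11a was 0.307, 0.293, 0.285, 0.249 and 0.310 in mutants 1 to 5, against 0.596 (lowest) to 0.973 (highest) in controls. Its log2 value was -1.80 ± 0.128 in mutants and -0.40 ± 0.243 in controls (SD), a difference of -1.40 with the same exact permutation p of 0.00433 and adjusted p of 0.0173. In both pairs 5 of 5 mutants lay below all controls. Among the libraries without Y-linked counts the differences were -1.79 for Foxp1 to Foxp2 and -1.35 for Bcl11b to Bcl11a, where 5 against 2 libraries allow an exact permutation p no smaller than 0.0952.

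The same shift can be read as a share of a family's counts. Foxp1 made up 43.9 ± 3.29% of all Foxp1, Foxp2 and Foxp4 counts in mutants (range 41.6 to 49.4%) and 67.7 ± 4.34% in controls (SD; range 61.1 to 74.0%). The nearest libraries were mutant 3 at 49.4% (95% Wilson interval 47.1 to 51.8%) and control 6 at 61.1% (59.4 to 62.7%), intervals that cover counting error only. Bcl11b made up 22.4 ± 1.51% of Bcl11a and Bcl11b counts in mutants (19.9 to 23.7%) and 43.2 ± 4.13% in controls (SD; 37.3 to 49.3%). Neither family's shares overlapped between the groups. These shares compare read counts of genes of unequal length.

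The other 6 pairs did not pass over the 8 pairs compared. The log2 ratio differed between mutants and controls by -0.77 for Foxp1 to Foxp4 (exact permutation p = 0.0823, adjusted p = 0.182) and by -0.68 for Six3 to Sp9, an indirect pathway factor (exact permutation p = 0.0909, adjusted p = 0.182). Six3 to Sp9 passed without control 4, at -0.88 (adjusted p = 0.0423). For Ikzf1 to Ikzf2 the difference was -1.05 (adjusted p = 0.561), and for Ebf1 to Isl1 -0.47 (adjusted p = 0.604). Single libraries moved both: Ikzf1 to Ikzf2 was -1.83 without mutant 3 and -0.27 without mutant 4. Ebf1 to Isl1 was -0.02 without mutant 4, -0.27 without mutant 5 and -0.31 without control 2, but -0.78 without mutant 1, -0.75 without mutant 2 and -0.86 without control 6. The differences for Zfp503 to Zfp703, -0.76 (adjusted p = 0.604), and for Foxp1 to Zfp503, -0.41 (adjusted p = 0.641), changed sign when 1 library was left out, to 0.05 without mutant 4 and to 0.13 without mutant 5.

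**Figure D3:**
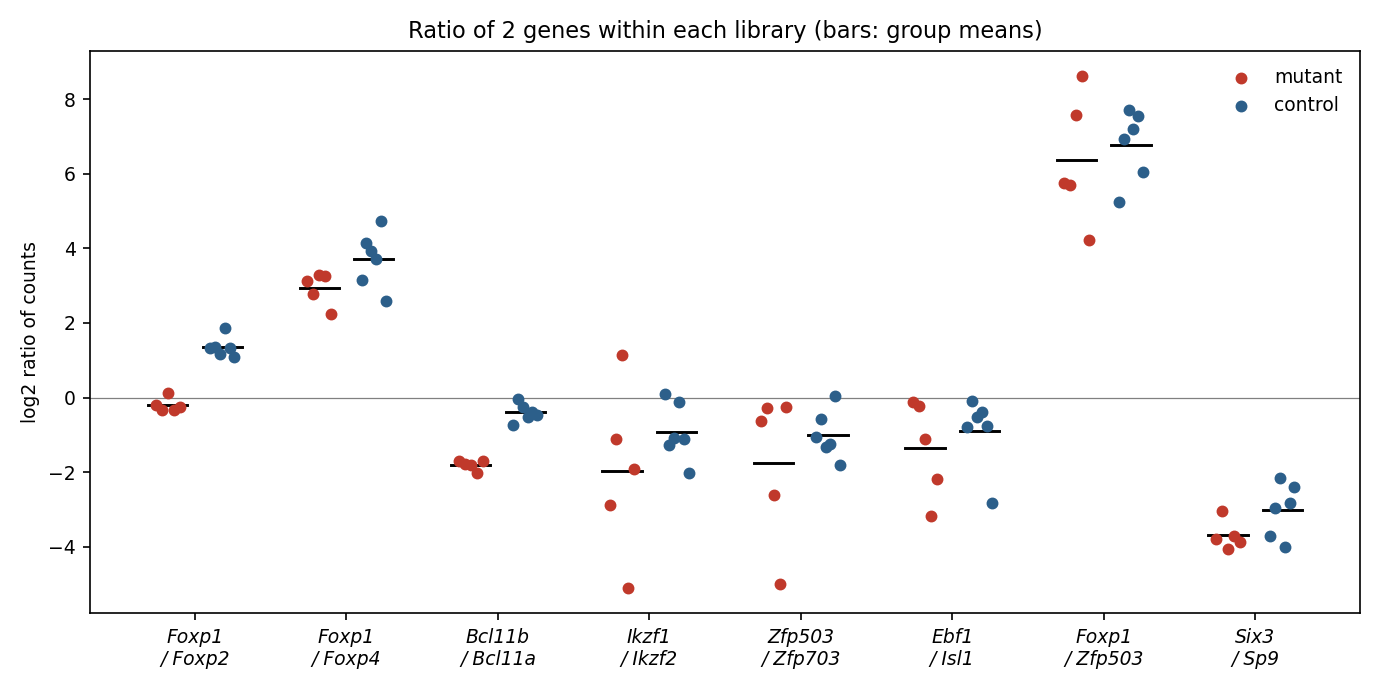
Log2 ratio of the counts of a pair of genes in each library, mutants left of controls, for the 8 pairs compared, with the group mean as a bar. Foxp1 to Foxp2 and Bcl11b to Bcl11a have all 5 mutants below all 6 controls, and in the other pairs the groups overlap.

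Per kilobase of exon, which allows levels of different genes to be set side by side, the members fell into an abundant and a sparse set in both groups. In mutants Bcl11b was highest at 13.2 CPM per kb, apart from Foxp1 at 7.45, Foxp2 at 7.24 and Isl1 at 3.81 CPM per kb. A gap followed, and then Ebf1 at 0.744, Ikzf1 at 0.551, Zfp503 at 0.532 and Six3 at 0.479 CPM per kb. In controls Bcl11b at 33.7 and Foxp1 at 30.3 CPM per kb led, before Isl1 at 10.5 and Foxp2 at 10.002 CPM per kb. Below a gap came Ebf1 at 2.31, Ikzf1 at 1.49, Six3 at 1.21 and Zfp503 at 0.830 CPM per kb. Neighbours in these orders did not differ beyond the range of their libraries, except at the gap above Ebf1 in both groups and between Bcl11b and Foxp1 in mutants, where the ranges were apart.

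Some libraries were low or high for several members at once. Mutant 4 was the lowest mutant for 5 of the 8 members, mutant 3 for the other 3, and mutant 2 the highest for 4. Control 5 was the highest control for 5 members and control 1 the lowest for 3. The summed member level was 276 CPM in mutant 4 and 422 CPM in mutant 2, against 505 and 578 CPM in controls 1 and 6 and 1377 CPM in control 5. Without controls 1 and 6, a choice made after the data were seen, Foxp1 and Bcl11b still passed, and the log2 fold change of Six3 was -1.26 (adjusted p = 0.0895).

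Among 22 other transcription factors of the striatal lineage, all tested, 2 fell and 0 rose, 17 had a log2 fold change below 0, and the median was -0.29. The retinoid X receptor Rxrg averaged 44.0 ± 15.3 CPM in mutants and 221 ± 87.7 CPM in controls (SD; log2 fold change -2.33 ± 0.302 SE, adjusted p = 0.00035), and no mutant reached the lowest control. The retinoic acid receptor Rarb averaged 41.2 ± 11.7 CPM in mutants and 121 ± 54.3 CPM in controls (SD; log2 fold change -1.56 ± 0.317 SE, adjusted p = 0.00953), but 1793 of its exon bases overlap Top2b on the opposite strand. DESeq2 called 5 of the 22 lower, where 1109 genes changed in either direction.

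Effector genes of the striatum went in both directions. Of 17 tested genes known from both pathways, 5 fell and 1 rose, with a median log2 fold change of -0.16. Pde10a, a striatal phosphodiesterase, fell with a log2 fold change of -1.36 (adjusted p = 0.00162), Arpp21, a cyclic AMP-regulated phosphoprotein, with one of -1.63 (adjusted p = 0.0037), and Gng7, a G protein subunit, with one of -1.20 (adjusted p = 0.00631). Ppp1r1b (DARPP-32), the dopamine-regulated phosphatase inhibitor, had one of -1.595 (adjusted p = 0.0443), but lost its call without any 1 of mutants 1 to 4 or controls 2 to 5, at -1.70 to -1.25. For Ppp1r1b it was -2.13 among libraries without Y-linked counts (adjusted p = 0.0551). Gnal, the olfactory G protein subunit used by striatal dopamine receptors, fell with a log2 fold change of -1.56 (adjusted p = 0.0139), and is named here after its value was seen, to complete the count. Pcp4, a calmodulin-binding peptide, was higher, at 187 ± 26.2 CPM in mutants and 68.2 ± 29.1 CPM in controls (SD; log2 fold change 1.45 ± 0.223 SE, adjusted p = 0.00124). Among libraries without Y-linked counts the log2 fold change of Pcp4 was 1.08 (adjusted p = 0.106).

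Of 6 tested indirect pathway genes 4 fell and 0 rose, with a median log2 fold change of -1.30. The adenosine receptor Adora2a averaged 19.4 ± 3.73 CPM in mutants and 82.1 ± 22.7 CPM in controls (SD), a log2 fold change of -2.08 ± 0.212 (SE, adjusted p = 3.88e-05). The log2 fold change was -0.92 (adjusted p = 0.00474) for the kainate receptor subunit Grik3, -1.55 (adjusted p = 0.0291) for Drd2 and -1.86 (adjusted p = 0.0369) for the orphan receptor Gpr6. Among libraries without Y-linked counts only 1 of the 4, Adora2a, kept its call, while the log2 fold change was -0.73 for Grik3 (adjusted p = 0.247), -1.29 for Drd2 (adjusted p = 0.202) and -1.99 for Gpr6 (adjusted p = 0.169). Without control 2 or control 3 the count was 2, with Drd2 at -1.50 to -1.49 and Gpr6 at -1.86 to -1.84. The count was 3 without any 1 of mutants 1, 3, 4 and 5 or controls 4, 5 and 6. It stayed at 4 only without mutant 2 or control 1. Over these 11 runs Drd2 lost its call in 5 and Gpr6 in 7. Of 8 direct pathway genes 1 rose and 0 fell, with a median log2 fold change of 0.09. That gene was Drd1, at 21.6 ± 4.95 CPM in mutants and 9.03 ± 3.67 CPM in controls (SD; log2 fold change 1.26 ± 0.302 SE, adjusted p = 0.0283). Drd1 lost its call without any 1 of mutants 2, 4 and 5 or controls 1 and 2, with a log2 fold change of 1.17 to 1.26, and among libraries without Y-linked counts, where it was 1.33 ± 0.496 (SE, adjusted p = 0.302).

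**Figure D4:**
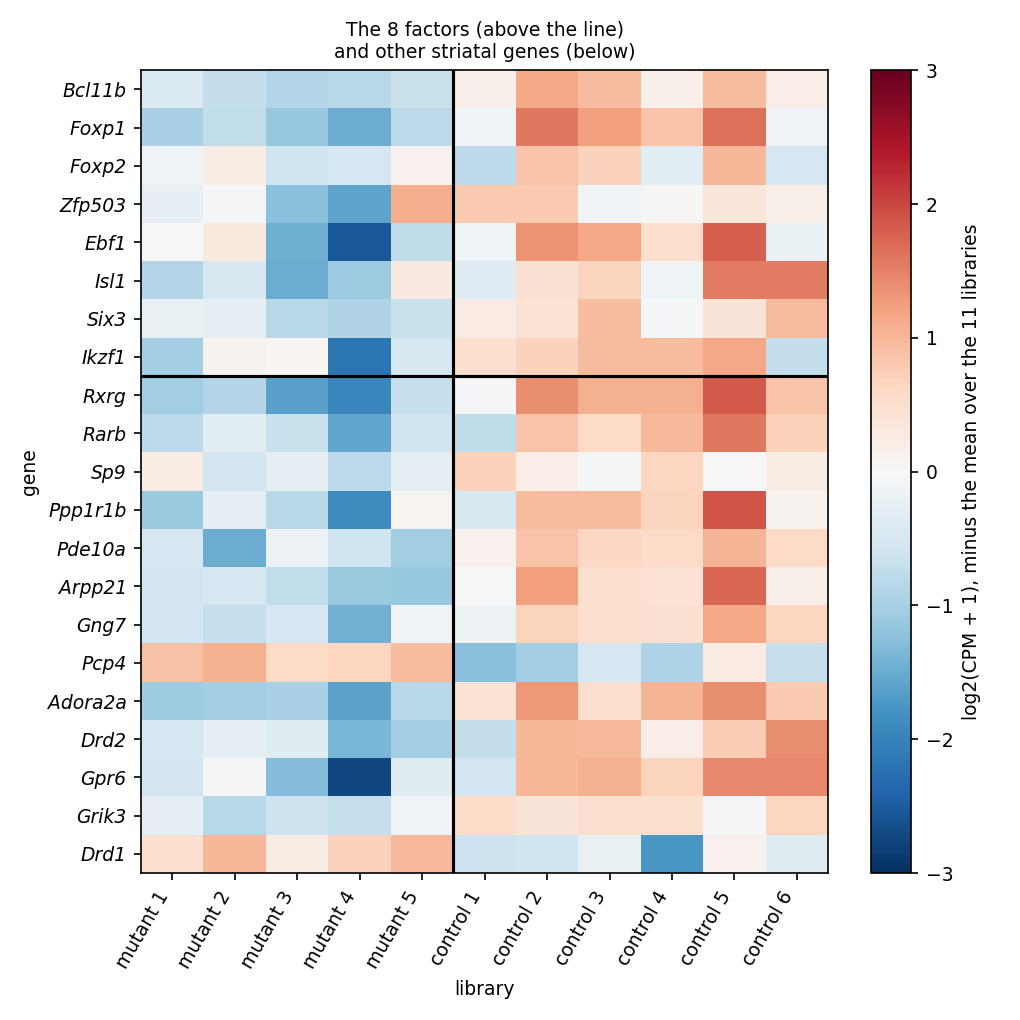
Level of the 8 transcription factors and of other striatal genes in each library as the log2 difference from the gene's mean over all 11 libraries (colour limits -3 and 3), mutants left of controls. The rows of Foxp1, Bcl11b and Six3 are below their mean in all 5 mutants, while Pcp4 and Drd1 are above theirs.

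Profiles over the 11 libraries were compared with those of 13933 genes by the root mean square difference of centred log2(CPM + 1) values, as a description with no test. The genes nearest to Foxp1, whose own SD was 1.09 on that scale, were Dclk3, a kinase, at 0.315, Gucy1a1, a guanylate cyclase subunit, at 0.370, and Arpp21 at 0.378. Nearest to Bcl11b (SD 0.720) were Enc1 at 0.237, Lmo4, a LIM-only protein, at 0.243 and the antisense gene Gm17552 at 0.253. Nearest to Six3 (SD 0.619) were Six3os1 at 0.204, Prkch, a protein kinase C, at 0.262 and Klf9, a zinc finger factor, at 0.277. The added 1 flattens the profiles of genes at low CPM. Gm17552 averaged 0.196 CPM in mutants and 1.99 CPM in controls, with a log2 fold change of -3.23 beside -1.35 for Bcl11b. Klf9 averaged 1.18 CPM in mutants and 3.48 CPM in controls. For Ebf1 (SD 1.20), Foxp1 at 0.561 and Ppp1r1b at 0.570 were among the 3 nearest, so another member stood close to it. For the rest, the nearest single genes were Slc35f2 for Foxp2 at 0.296 (SD 0.598), Cacna1h for Isl1 at 0.340 (SD 0.958), 1500035N22Rik for Ikzf1 at 0.434 (SD 0.976) and 2900079G21Rik for Zfp503 at 0.409 (SD 0.785).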

How the data were processed

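RNA came from GFP-positive V-SVZ cells dissociated with papain, per the labels' protocols, was purified with the RNeasy Micro kit after lysis in Trizol LS, and was made into Illumina TruSeq libraries. The deposited values are raw counts per Ensembl gene for 11 libraries. Per the submitters' processing notes, TopHat2 2.0.13 and featureCounts 1.4.6 were used with mm10 or GRCm38. The sources used here give no annotation release, strand setting or rule for reads that align more than once, so reads of overlapping genes on opposite strands cannot be assigned to either.

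Symbols and coordinates came from GENCODE M21 on GRCm38, which gave a symbol to 37607 of 39179 genes. The test of genes was that of edgeR 4.0.16 in R 4.3.3 (filterByExpr, TMM, robust quasi-likelihood fit, no covariates, all 11 libraries) and adjusted by Benjamini-Hochberg over the 14104 genes kept, at 0.05. Adjusted p-values of genes come from it unless DESeq2 (1.42.0) or limma-voom (3.58.1) is named. Depth of 6833981 to 13073505 counts a library sets the precision, and members with under 100 counts a library are the least certain. Intervals cover counting error only. Counts of replicates differed beyond sampling noise (at least 13.7 chi-square units per degree of freedom), so each library counted once. Log2 ratios of gene pairs, with 0.5 added to each count, were compared by exact two-sided permutation over 462 splits with Python 3.11.15 and scipy 1.17.1. The edgeR fit was checked on simulated counts, and the permutation test on simulated normal values.

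The members and the gene lists were chosen with earlier results of these data known. Besides the members, the text names both genes of each pair, up to 4 tested genes with the smallest adjusted p in each list (or up to 2 with the highest level where none passed), and the 3 genes with the nearest profile to a member; some genes this rule would name are not reported here. Alternatives were another scaling, filter, tool or threshold, a Y-linked covariate, libraries without Y-linked counts, a replicate block and each library left out. Whether libraries of the same number form pairs is not known. Their deviations correlated at -0.14 to 0.02, which cannot decide it.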

Additional observations from a re-analysis of the deposited data

Results flagged for a closer look

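Dixon's test on the highest and the lowest library of each group, over 32 groups of members and pair ratios, picked out 2 values, and chance picks out about 1 in 20 groups. The log2 ratio of Foxp1 to Foxp2 in control 4 was 1.86, farther above the other controls than the test allows (gap over range 0.649 against a critical value of 0.625). This control had 374 CPM of Foxp1 and 103 CPM of Foxp2, and leaving it out did not change the call of this ratio. The log2 ratio of Ebf1 to Isl1 in control 6 was -2.84, far below the other controls (gap over range 0.746 against 0.625), with 9.71 CPM of Ebf1 and 69.7 CPM of Isl1. That pair did not differ between mutants and controls beyond its spread with or without this library.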

How the results depend on the processing

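The log2 fold changes of Foxp1 and Bcl11b, and the absence of any member called higher, kept their side of the threshold under all 26 alternatives. The number of genes changed was 1109 with DESeq2, 286 at a threshold of 0.01, 976 at 0.1, 186 with the Y-linked covariate and 218 among libraries without Y-linked counts, against 623, and 418 to 656 with 1 library left out. Members lower numbered 5 with DESeq2, where Ebf1 (-1.64) and Isl1 (-1.46) passed, and 2 to 4 with 1 library left out. Isl1 also passed by library totals (-1.50), at a threshold of 0.1 (-1.46) and without control 6 and mutant 5 (-1.61), with log2 fold changes of -1.83 to -1.25 leaving out 1 library. Isl1 did not pass with the Y-linked covariate (-1.67) or among libraries without Y-linked counts (-1.59). Six3 lost its call with no filter (-1.31), at 0.01 (-1.33), with the Y-linked covariate (-0.96), among libraries without Y-linked counts (-0.92), without control 6 and mutant 5 (-1.18) and without controls 1 and 6 (-1.26, chosen after seeing the data), and ranged from -1.47 to -1.22 leaving out 1 library. Ebf1 ranged from -2.07 to -1.36 over all alternatives. In the replicate block, which pairs libraries of the same number, 421 genes changed, Isl1 passed (-1.22) and Six3 did not (-1.21). The log2 ratios of Foxp1 to Foxp2 (-1.61) and Bcl11b to Bcl11a (-1.41) could not pass there, since sign flips of 5 pairs allow no p below 0.0625. Nor could they among libraries without Y-linked counts (-1.79 and -1.35). Foxp1 to Foxp4 passed without controls 1 and 6 (-1.19) and was -0.57 without control 5, and Six3 to Sp9 without control 4, ranging from -0.88 to -0.51 leaving out 1 library. Signs turned for Bcl11a without controls 1 and 6 (-0.0107, range -0.0107 to 0.154 leaving out libraries), for Zfp503 to Zfp703 without mutant 4 (0.0486, range -1.14 to 0.0486) and for Foxp1 to Zfp503 without mutant 5 (range -0.98 to 0.13). The causes were not tested. Depth limits Zfp503, Ikzf1 and Six3 most, at 2 to 110 counts a library.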
